A study of Mus musculus with 11 samples.

Results

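The hypoxia response and glycolysis genes are a set of 41 named mouse genes, the glycolytic enzymes together with genes known as targets or parts of the hypoxia-inducible factor (HIF) pathway. They were chosen by symbol, with earlier results of these data known. Counts were found for 40 of the 41, out of 48299 genes listed: 39 under their own symbol, and Ca9 under Car9, a synonym in RefSeq. Aldoa was not analysed here. A filter on low counts kept 39 members among the 14346 genes tested. The filter removed Slc2a3, a glucose transporter, which had at most 3 counts in any library. By role, 15 of the members tested are glycolytic enzymes, 5 are regulators of glycolysis or transporters, 3 are HIF subunits, 2 are oxygen sensors and 14 are other HIF targets.

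HIF is a transcription factor made of an oxygen-regulated alpha subunit, HIF-1α (Hif1a) or HIF-2α (Epas1), and a constant partner, ARNT. When oxygen is present, prolyl hydroxylases of the Egln family mark the alpha subunit for destruction by the VHL ubiquitin ligase; when oxygen is short, the subunit is kept, enters the nucleus and binds DNA at a short core motif. Its targets raise glucose uptake and glycolysis, divert pyruvate from mitochondria, remove damaged mitochondria and recruit blood vessels, and some of them, such as Egln3, feed back on HIF itself. Transcript levels of Hif1a do not report the level of its protein, which is set mostly by its breakdown.

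Messenger RNA was sequenced in 11 libraries of WFU3, a mouse prostate epithelial stem cell line, in 4 groups that cross knockdown of Map3k7, the kinase TAK1, with knockdown of Chd1, a chromatin remodeller. Every group carried lentiviral short hairpins. The shControl group had 3 libraries with control hairpins: an unnumbered line marked puro and neo at passage 30 (replicate 1), and control clones 4 and 5, marked GFP and puro, at passage 52 (replicates 2 and 3). The shMap3k7 group had 2 libraries, Map3k7 hairpin clone 1 at passage 49 and clone 7 at passage 47, each with a control hairpin in the puro vector. The shChd1 group had 2 libraries, both made from control clone 4, with Chd1 construct 96526 at passage 52 (replicate 1) or 96528 at passage 50 (replicate 2). The shDouble group had 4 libraries: clone 1 with 96526 and 96528 at passage 49 (replicates 1 and 2) and clone 7 with 96526 and 96528 at passage 48 (replicates 3 and 4). Clones 1, 7, 4 and 5 were each picked with cloning cylinders, so a difference between groups is also a difference between few clones. RNA was taken 24 hours after plating in full growth medium, and the labels name no low-oxygen treatment. The labels give no batch and do not say whether each library is its own culture, so p-values measure only the spread between these samples, which may be technical.

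Total counts ran from 14132371 to 23163709 per library. Map3k7 was at 39.3 to 43.0 CPM, counts scaled for library size, in the 6 libraries with its hairpin and at 124 to 140.4 CPM in the other 5. Chd1 was at 146 and 150.3 CPM in shChd1 against 195 to 212 CPM in shControl, and the 4 shDouble libraries, at 162 to 198 CPM, overlapped the controls. Of the cell type markers, 7 epithelial genes summed to 3830 to 9660 CPM in shControl, 10100 to 10300 in shMap3k7, 2040 to 2290 in shChd1 and 9900 to 10500 in shDouble, nearly all of it from Krt8, Krt18, Krt14, Epcam and Cdh1. The basal cell genes did not go together. Krt14 ranged from 545 to 3906 CPM across libraries and was lowest in shChd1, where Trp63 was highest. Trp63 was at 5.17 to 12.1 CPM in shControl and at 18.5 and 20.9 in shChd1. In libraries with a Map3k7 hairpin Trp63 was at 0.521 to 2.34 CPM. Krt5 was low apart from 48.9 CPM in shControl replicate 1. The sum of 8 fibroblast genes was at least 26.4 CPM in shControl and 128 CPM in shChd1. It was at most 10.7 CPM in the libraries with a Map3k7 hairpin, with Lum at 0 counts in every library. Most of the shChd1 sum was Col3a1, at 91.0 and 87.2 CPM against 1.21 to 34.0 in shControl. Twist2 also lay above every control in shChd1. Col1a1 lay below every control there, at 2.37 and 2.02 CPM against 2.86 to 12.7, and Pdgfra and Pdgfrb overlapped the controls. The sum of 4 endothelial genes was 38.7 CPM in shControl replicate 1 and at most 0.498 in the other libraries, and sums of 4 immune and 4 smooth muscle genes stayed at or below 2.12 and 3.50 CPM. These levels moved with the groups, and their part in the results below was not tested.

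The motif that HIF binds has the core RCGTG, where R is A or G, and a match here means the ACGTG form. It was searched on both strands (ACGTG or CACGT) in RefSeq promoters on GRCm38.p6, windows of 250 bases before to 50 bases after each start site. A match inside CACGTG, the E-box read by Myc-family factors, counts on both strands. Of the 39 members tested, 36 had an entry, with 52 promoters. At least 1 match stood in 28 of these 52 promoters (53.8%), against 25.0% of the 13099 promoters of genes tested and 19.6% of all 32851 promoters in the table. Promoters of the glycolytic enzymes held it in 10 of 24 (41.7%) and those of the HIF targets that are not glycolytic enzymes in 17 of 26 (65.4%). GCGTG, the other form of the core and not counted as a match, stood in 57.7% of members' promoters and in 49.8% of promoters of genes tested. The median number of CG pairs was 20.5 and 20.0. A match describes the letters and does not show binding. The 250 bases before the start site are printed below at the start site farthest upstream of each gene, with matches in capitals. Counted by gene, 25 of the 36 members with an entry (69.4%) have a match in at least 1 window. Of the 10261 genes tested that had an entry, 29.0% have one. Of the 19 members that fell in shDouble against shControl, 13 have a match in at least 1 window, 5 have none in any window (Gpi1, Pfkl, Eno2, Pfkfb4 and Pdk1) and Bnip3l has no entry. Of these 5, Pfkl, Pfkfb4 and Pdk1 have GCGTG in a window. Shown are 5 of the 13, picked after matches were counted to show where they stand, with Pdk1 from those without a match and Mxi1, which rose:
Egln3: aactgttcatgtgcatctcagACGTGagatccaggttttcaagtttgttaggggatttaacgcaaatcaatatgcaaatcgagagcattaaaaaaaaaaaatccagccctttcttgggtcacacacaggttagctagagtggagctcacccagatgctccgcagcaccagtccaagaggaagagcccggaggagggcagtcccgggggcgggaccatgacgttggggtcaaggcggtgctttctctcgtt
Bnip3: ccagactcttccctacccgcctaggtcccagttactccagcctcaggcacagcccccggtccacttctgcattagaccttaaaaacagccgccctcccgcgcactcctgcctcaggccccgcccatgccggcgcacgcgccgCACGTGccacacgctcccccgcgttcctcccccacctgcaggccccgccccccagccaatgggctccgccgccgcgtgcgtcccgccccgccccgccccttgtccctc
P4ha1: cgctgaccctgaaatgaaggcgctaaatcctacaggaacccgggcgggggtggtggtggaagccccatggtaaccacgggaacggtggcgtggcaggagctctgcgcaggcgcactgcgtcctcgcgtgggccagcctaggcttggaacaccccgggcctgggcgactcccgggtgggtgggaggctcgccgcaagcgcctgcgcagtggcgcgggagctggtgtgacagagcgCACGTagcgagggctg
Pfkfb3: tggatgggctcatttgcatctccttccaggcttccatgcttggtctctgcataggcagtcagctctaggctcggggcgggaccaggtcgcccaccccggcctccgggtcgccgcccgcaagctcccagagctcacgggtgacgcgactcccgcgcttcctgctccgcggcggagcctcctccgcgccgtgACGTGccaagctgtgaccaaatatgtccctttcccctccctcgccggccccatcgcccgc
Ldha: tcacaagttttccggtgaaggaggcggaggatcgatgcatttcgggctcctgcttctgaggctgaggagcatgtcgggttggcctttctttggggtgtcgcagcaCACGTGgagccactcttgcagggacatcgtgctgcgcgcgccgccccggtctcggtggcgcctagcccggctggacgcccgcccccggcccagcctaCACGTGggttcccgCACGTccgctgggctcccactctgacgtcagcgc
Pdk1: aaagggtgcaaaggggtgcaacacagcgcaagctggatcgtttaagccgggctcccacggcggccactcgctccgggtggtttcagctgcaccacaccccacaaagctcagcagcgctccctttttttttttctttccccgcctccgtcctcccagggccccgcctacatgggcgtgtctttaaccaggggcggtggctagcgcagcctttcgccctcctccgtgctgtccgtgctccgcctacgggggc
Mxi1: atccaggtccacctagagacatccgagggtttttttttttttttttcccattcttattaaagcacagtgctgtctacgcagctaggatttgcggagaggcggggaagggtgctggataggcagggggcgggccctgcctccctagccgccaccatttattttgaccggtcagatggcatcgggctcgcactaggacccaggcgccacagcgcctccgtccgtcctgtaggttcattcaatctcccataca

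Egln3 (minus strand, chr12:54203875-54204124) has 1 match, which starts 229 bases before the start site. Bnip3 (minus strand, chr7:138909507-138909756) has 2 matches that are the strands of 1 E-box, 108 bases before the start site. P4ha1 (plus strand, chr10:59323046-59323295) has 1 match 16 bases before the start site, and Pfkfb3 (minus strand, chr2:11553930-11554179) has 1 at 60 bases; its other window has 2. Ldha (plus strand, chr7:46845554-46845803) has 5 matches, 4 of them in 2 E-boxes at 145 and 48 bases and 1 at 34 bases, and its other window has none. Pdk1 (plus strand, chr2:71872974-71873223) has no match in either of its windows, and the GCGTG it holds is not in capitals. The Mxi1 window (plus strand, chr19:53310256-53310505) has none, which says only that these letters are not in it, and its other 2 windows have 1 each.

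Levels of the enzymes were compared per length, as mean CPM per kilobase of annotated exon over the 11 libraries. Gapdh, which oxidises glyceraldehyde 3-phosphate, was highest at 895 CPM per kilobase (701 to 1170.0 across libraries). Pkm, the last step to pyruvate, followed at 770.0 (640.0 to 928), then Pgk1 at 646 (442 to 941), Ldha at 576 (388 to 823), Pgam1 at 405 (281 to 460.0), Tpi1 at 291 (196 to 438) and Eno1 at 242 (198 to 284). Each of these neighbours overlapped in range. The enzymes of the first steps were lower: Gpi1 at 92.7, the phosphofructokinase Pfkl at 31.5, and the hexokinases Hk2 at 17.6 and Hk1 at 16.9, whose ranges overlapped. Pfkl was the most abundant phosphofructokinase, above Pfkm at 9.44 and Pfkp at 2.62 CPM per kilobase. Ranges of these 3 genes per kilobase did not overlap. The order of Pfkm and Pfkp rests on annotated exon length, 3.34 and 13.4 kilobases. Not divided by length, mean CPM was 31.53 for Pfkm and 35.15 for Pfkp. Eno2, the neuronal enolase, was lowest at 0.246. Outside the enzymes, Ddit4 led at 72.2 CPM per kilobase (50.1 to 128), followed by Hif1a with 18.1 to 94.0 across libraries, Slc2a1 at 39.5 (22.2 to 50.3), Egln1 at 32.7 (22.8 to 51.0) and Vegfa at 30.7 (11.9 to 59.5), and neighbours in this order overlapped. The other members lay below these, down to Slc16a3 at 0.0969. Counts of Gapdh, Pkm, Pgam1, Eno1 and Pfkp, and of Mxi1 below, were not whole in at least 9 libraries, as when reads are divided between similar sequences, so their levels are uncertain; this held for Hif1a in 7 libraries and for Gpi1 in 6. Eno1 held 45.1% to 48.0% of the sum of Eno1 and its copy Eno1b in every library.

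With 1 exception, the members called in cells with a Map3k7 hairpin were lower there than in the controls. In shMap3k7 7 of 39 members (17.9%) fell and 1 rose, against 7.08% and 4.86% of all genes tested. In shDouble 19 of 39 (48.7%) fell and 1 rose, against 13.6% and 10.2% of all genes. In either direction these are 8 and 20 members, against 11.9% and 23.8% of all genes. The falls in shDouble reached from the glycolytic enzymes to the oxygen sensor Egln3, the mitophagy receptors Bnip3 and Bnip3l, the collagen hydroxylases P4ha1 and P4ha2, and Hif1a itself. Mxi1, a Myc antagonist, was the member that rose in both. The test was edgeR's quasi-likelihood F-test with Benjamini-Hochberg adjustment over all genes tested, called at an adjusted p under 0.05. Counted by ranges alone, 16 of 39 members had both shMap3k7 libraries below every control, against 22.0% of all genes tested, and 2 had both above, against 20.9%. In shDouble 13 of 39 had all 4 libraries below every control, against 16.7%, and 1 above, against 15.9%. Both comparisons use the same 3 controls, so they are not independent of each other, and in bulk RNA fewer cells that express a gene and less RNA per cell cannot be told apart.

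**Figure D1:**
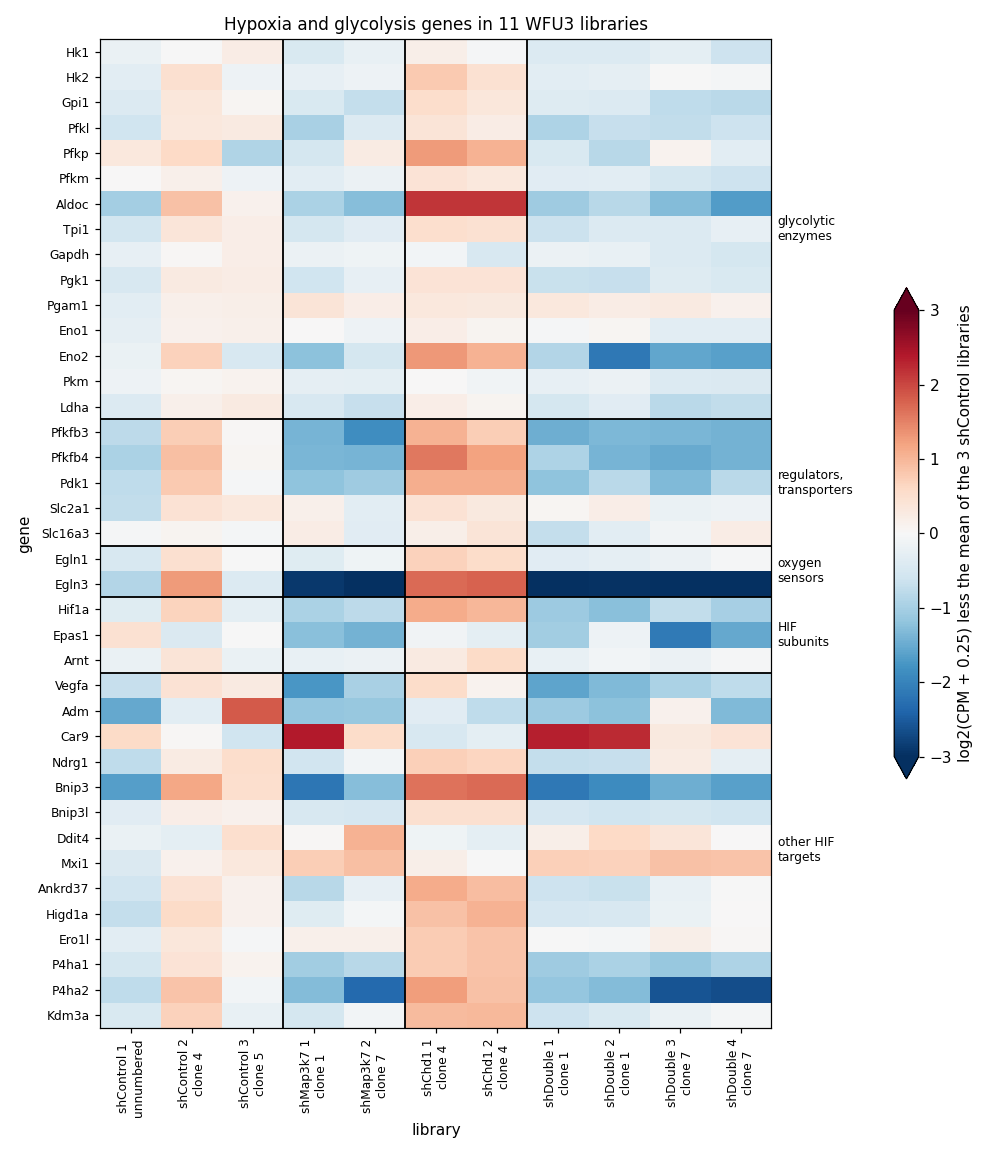
Level of the 39 members tested (vertical axis, grouped by role) in each of the 11 libraries (horizontal axis). Colour gives log2(CPM + 0.25) less the mean of the 3 shControl libraries, with red above and blue below and the scale ending at 3 and -3; Egln3 is below the controls in all 6 libraries with a Map3k7 hairpin, and Car9 is high in the 3 libraries of clone 1.

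The control libraries differed among themselves in many members. Control clone 4 was the highest of the 3 controls in 27 of 39 members (69.2%), against 37.2% of all genes tested, and replicate 1 was the lowest in 32 (82.1%), against 34.1%. Replicate 1 is also the library at passage 30, with its own vectors and with the endothelial transcripts. Without replicate 1, 18 members were called in shMap3k7 (1 higher, 17 lower) and 24 in shDouble (1 higher, 23 lower). Without clone 4, 3 were called in shMap3k7 (Mxi1, P4ha1 and Pfkfb3) and 8 in shDouble (Mxi1, Hif1a, Egln3, Bnip3, Bnip3l, P4ha1, Pfkfb3 and Pfkfb4). With either shMap3k7 library left out, none was called in that comparison, 3 were called without either shChd1 library, and 5 without shDouble replicate 1, 3 or 4. With the line as a random block limma voom called 2 in shMap3k7 and 8 in shDouble, and with counts summed per line edgeR called none in either. Shares of all genes called in these other fits are not given here, so the counts show only how the calls depend on the fit.

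Among the 15 glycolytic enzymes none was called in shMap3k7, where 6 were lower at an unadjusted p under 0.05, against 15.7% of all genes, and DESeq2 called 4 (Aldoc, Gpi1, Ldha and Pfkl) and limma voom none. In shDouble 9 of the 15 fell, against 13.6% of all genes. Their falls were mostly modest, from 0.804 of the control level for Pkm to 0.572 for Pfkl, with the low isozymes Aldoc and Eno2 beyond that. None rose. No enzyme was called in shDouble with the line as a random block in limma voom, with counts summed per line, or without control clone 4; 3 were called without control clone 5 (Aldoc, Eno2 and Pfkm) and 3 without shDouble replicate 4 (Eno2, Pfkl and Pfkm).

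Hk1, which phosphorylates glucose, stood at 141, 162 and 190.0 CPM in shControl, at 119 and 140.3 in shMap3k7, at 185 and 161 in shChd1, and at 123, 123, 134 and 107 in shDouble. All 6 libraries with a Map3k7 hairpin lay below the 3 controls. Its log2 difference from shControl was -0.34 ± 0.15 (adjusted p = 0.150) in shMap3k7 and -0.43 ± 0.12 (adjusted p = 0.0262) in shDouble. Hk2, the isozyme known as a HIF target, overlapped the controls and had a log2 difference of -0.20 ± 0.18 (adjusted p = 0.445) in shDouble. Gpi1, glucose-6-phosphate isomerase, was at 504, 857 and 704 CPM in shControl, at 494 and 410.0 in shMap3k7, at 963 and 846 in shChd1, and at 510.3, 508, 394 and 384 in shDouble. The shDouble libraries of clone 7 were the lowest, and those of clone 1 reached the level of control replicate 1. The log2 difference was -0.61 ± 0.21 (adjusted p = 0.0907) in shMap3k7 and -0.62 ± 0.18 (adjusted p = 0.0285) in shDouble. Gpi1, Ldha, Bnip3 and Adm lie on chromosome 7, where the median of all genes tested was -0.23 in shMap3k7 and -0.24 in shDouble.

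Pfkl, the liver-type phosphofructokinase, was at 165, 313 and 304 CPM in shControl, at 127 and 188 in shMap3k7, at 326 and 292 in shChd1, and at 132, 155, 149 and 162 in shDouble. The 4 shDouble libraries lay below all controls, and clone 7 in shMap3k7 reached above control replicate 1. On the log2 scale it differed from shControl by -0.81 ± 0.21 (adjusted p = 0.0194) in shDouble and -0.72 ± 0.26 (adjusted p = 0.0913) in shMap3k7. Pfkm, the muscle type, was at 34.3, 37.7 and 30.4 CPM in shControl, at 27.1 and 30.3 in shMap3k7, at 45.1 and 42.1 in shChd1, and at 26.7, 27.3, 23.7 and 22.1 in shDouble. All 6 libraries with a Map3k7 hairpin lay below the controls, by a small margin in clone 7 of shMap3k7, and the log2 difference in shDouble was -0.45 ± 0.11 (adjusted p = 0.0152). Pfkp, the platelet type, ranged from 16.2 to 45.5 CPM within the controls and differed on the log2 scale by -0.47 ± 0.33 (adjusted p = 0.330) in shDouble.

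Aldoc, an aldolase, had the widest range of the enzymes after Eno2, at 5.31, 20.5 and 11.99 CPM in shControl, at 5.53 and 4.35 in shMap3k7, at 49.3 and 49.6 in shChd1, and at 5.13, 6.06, 4.27 and 3.27 in shDouble. The shChd1 libraries were the highest and the clone 7 libraries the lowest, while control replicate 1 lay among the libraries with a Map3k7 hairpin. Against shControl the log2 difference was -1.43 ± 0.37 (adjusted p = 0.0189) in shDouble and -1.35 ± 0.46 (adjusted p = 0.0832) in shMap3k7. Tpi1, triosephosphate isomerase, had a log2 difference of -0.47 ± 0.18 (adjusted p = 0.0891) in shDouble and overlapped the controls. Gapdh, often taken as a constant reference, was at 3561, 4295 and 4840.0 CPM in shControl, at 3702 and 3844 in shMap3k7, at 3969 and 3029 in shChd1, and at 3722, 3625, 3158 and 2896 in shDouble. Its groups overlapped, and its log2 difference in shDouble was -0.34 ± 0.13 (adjusted p = 0.0875).

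Pgk1, the first enzyme of the pathway to make ATP, was at 1134, 1931 and 1849 CPM in shControl, at 1061 and 1339 in shMap3k7, at 2108 and 2105 in shChd1, and at 1008, 989.7, 1223 and 1163 in shDouble. Control replicate 1 lay within the range of the libraries with a Map3k7 hairpin, and the other 2 controls lay above them. From shControl it differed on the log2 scale by -0.58 ± 0.17 (adjusted p = 0.0317) in shDouble and -0.45 ± 0.21 (adjusted p = 0.179) in shMap3k7. Pgam1, the phosphoglycerate mutase, had positive log2 differences in both, 0.28 ± 0.14 (adjusted p = 0.212) in shMap3k7 and 0.22 ± 0.12 (adjusted p = 0.202) in shDouble. It lies on chromosome 19, where the median of all genes tested was 0.36 and 0.39.

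Eno1, the common enolase, overlapped the controls in both comparisons, with a log2 difference of -0.15 ± 0.13 (adjusted p = 0.418) in shDouble. Eno1, Slc2a1 and Car9 lie on chromosome 4, where the median of all genes tested was 0.208 in shMap3k7 and 0.215 in shDouble. Less that median, their log2 differences in shDouble were -0.37, -0.32 and 1.54. The part of that shift was not tested. Eno2 was at 1.06, 2.18 and 0.825 CPM in shControl, at 0.390 and 0.797 in shMap3k7, at 3.49 and 2.85 in shChd1, and at 0.575, 0.0918, 0.260 and 0.238 in shDouble. A level of 3 counts corresponds to 0.133 to 0.217 CPM, so single shDouble libraries are at the limit of the depth. Its log2 difference from shControl was -2.18 ± 0.54 (adjusted p = 0.0166) in shDouble, and shDouble replicate 1 lay above the other 3. Pkm was at 3867, 4480.0 and 4639 CPM in shControl, at 3583 and 3507 in shMap3k7, at 4337 and 3996 in shChd1, and at 3664, 3797, 3269 and 3198 in shDouble. The 6 libraries with a Map3k7 hairpin lay below the 5 others, with a log2 difference of -0.31 ± 0.09 (adjusted p = 0.0256) in shDouble.

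Ldha, which turns pyruvate into lactate, was at 1698, 2513 and 2724 CPM in shControl, at 1636 and 1402 in shMap3k7, at 2600.0 and 2391 in shChd1, and at 1568, 1778, 1285 and 1367 in shDouble. Clone 7 was lower than clone 1 in every library, and control replicate 1 lay within the range of the shDouble libraries. The log2 difference was -0.62 ± 0.16 (adjusted p = 0.0192) in shDouble and -0.61 ± 0.20 (adjusted p = 0.0710) in shMap3k7.

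Of the regulators of glycolysis, Pfkfb3, Pfkfb4 and Pdk1 fell in both comparisons with shControl, and the 2 transporters tested did not pass. Pfkfb3 makes fructose 2,6-bisphosphate, an activator of phosphofructokinase, and was at 12.9, 37.5 and 22.8 CPM in shControl, at 8.33 and 5.94 in shMap3k7, at 46.5 and 37.1 in shChd1, and at 7.96, 8.63, 8.44 and 8.14 in shDouble. The 6 libraries with a Map3k7 hairpin, at 5.94 to 8.63 CPM, all lay below the lowest control. On the log2 scale it differed from shControl by -1.77 ± 0.37 (adjusted p = 0.0154) in shMap3k7, to 0.293 of the control level, and -1.56 ± 0.29 (adjusted p = 0.00413) in shDouble.

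Pfkfb4, a second enzyme of that family, was at 4.99, 18.5 and 10.2 CPM in shControl, at 3.64 and 3.62 in shMap3k7, at 30.2 and 23.1 in shChd1, and at 5.09, 3.58, 3.28 and 3.51 in shDouble. Replicate 1 of shDouble lay just above the lowest control and the other 5 libraries with a Map3k7 hairpin lay below it. Against shControl the log2 difference was -1.63 ± 0.46 (adjusted p = 0.0438) in shMap3k7 and -1.54 ± 0.36 (adjusted p = 0.0119) in shDouble. Pdk1, which inhibits pyruvate dehydrogenase, was at 32.0, 94.0 and 52.8 CPM in shControl, at 23.4 and 25.6 in shMap3k7, at 116 and 115 in shChd1, and at 23.1, 30.7, 21.6 and 30.7 in shDouble. The libraries with a Map3k7 hairpin reached up to 30.7 CPM, just under the 32.0 CPM of control replicate 1. From shControl it differed on the log2 scale by -1.29 ± 0.36 (adjusted p = 0.0455) in shMap3k7 and -1.17 ± 0.29 (adjusted p = 0.0158) in shDouble.

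Slc2a1, the glucose transporter GLUT1 and the most abundant member of this role per kilobase, was at 78.1, 176 and 164 CPM in shControl, at 145 and 105 in shMap3k7, at 177 and 162 in shChd1, and at 137, 152, 113 and 117 in shDouble. Control replicate 1 was the lowest of the 11 libraries, and clone 1 lay above clone 7. Its log2 difference from shControl was -0.16 ± 0.29 (adjusted p = 0.757) in shMap3k7 and -0.10 ± 0.24 (adjusted p = 0.799) in shDouble. Slc16a3, the lactate exporter MCT4, stayed between 0.221 and 0.759 CPM in all libraries.

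Of the HIF subunits Hif1a fell in shDouble and the other 2 did not pass in either comparison. Hif1a was at 198, 403 and 209.6 CPM in shControl, at 132 and 148 in shMap3k7, at 555 and 506 in shChd1, and at 121, 107, 154 and 129 in shDouble. All 6 libraries with a Map3k7 hairpin lay below the 5 others, and control clone 4, at 403 CPM, lay between the other controls and the shChd1 libraries made from it. The log2 difference was -1.08 ± 0.23 (adjusted p = 0.00771) in shDouble, to 0.473 of the control level, and -0.95 ± 0.28 (adjusted p = 0.0523) in shMap3k7, which missed the threshold.

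Epas1, which encodes HIF-2α, was at 17.0, 9.03 and 12.1 CPM in shControl, at 5.01 and 4.42 in shMap3k7, at 11.3 and 10.1 in shChd1, and at 5.88, 11.02, 2.66 and 4.10 in shDouble. Within clone 1 it was higher with construct 96528 than with 96526, and that library reached the control range. On the log2 scale it differed from shControl by -1.43 ± 0.51 (adjusted p = 0.0944) in shMap3k7 and -1.10 ± 0.40 (adjusted p = 0.0717) in shDouble. Arnt, the shared partner, was at 51.2, 76.5 and 51.2 CPM in shControl, at 50.4 and 51.8 in shMap3k7, at 70.3 and 86.6 in shChd1, and at 50.4, 55.5, 51.9 and 57.5 in shDouble, and its log2 difference was -0.22 ± 0.18 (adjusted p = 0.426) and -0.15 ± 0.15 (adjusted p = 0.488). It ranged from 50.4 to 57.5 CPM in the 8 libraries of other lines and from 70.3 to 86.6 CPM in the 3 of clone 4.

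Of the oxygen sensors Egln3 fell in both comparisons and Egln1 in neither. Egln1, the main prolyl hydroxylase, was at 81.9, 159 and 113 CPM in shControl, at 88.3 and 104 in shMap3k7, at 183 and 165 in shChd1, and at 89.2, 94.2, 101 and 111 in shDouble. The libraries with a Map3k7 hairpin lay between the lowest and the highest control, with a log2 difference of -0.29 ± 0.23 (adjusted p = 0.415) in shMap3k7 and -0.25 ± 0.19 (adjusted p = 0.350) in shDouble. Egln3, the hydroxylase most strongly induced by HIF, was at 15.2, 68.8 and 21.2 CPM in shControl, at 3.58 and 0.507 in shMap3k7, at 91.9 and 97.0 in shChd1, and at 2.87, 3.40, 0.365 and 0.119 in shDouble. Its range across libraries, 816-fold from lowest to highest, was the widest of all members. Clone 7 libraries held 0.119 to 0.507 CPM, near or under the level of a few counts, and clone 1 libraries 2.87 to 3.58. Against shControl the log2 difference was -4.07 ± 1.09 (adjusted p = 0.0369) in shMap3k7, to 0.0596 of the control level, and -4.31 ± 0.81 (adjusted p = 0.00464) in shDouble.

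**Figure D2:**
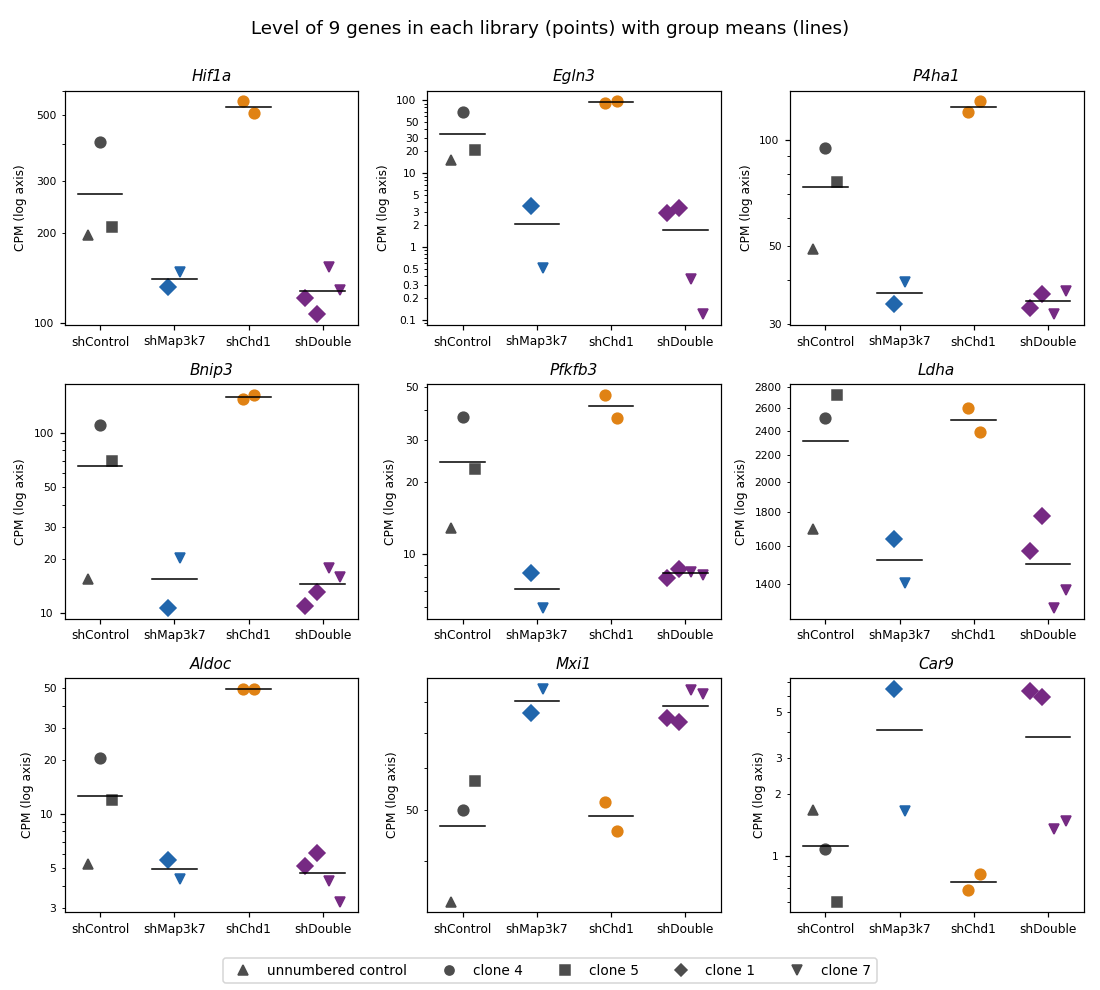
CPM on a log axis for 9 genes in each library, by group; symbols show the line a library comes from and short lines show group means. Hif1a, Egln3, P4ha1 and Pfkfb3 are lower in the 6 libraries with a Map3k7 hairpin than in all 5 others, Mxi1 is higher in all 6, and Car9 is high in the 3 clone 1 libraries.

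Among the 14 other HIF targets 3 fell (21.4%) and 1 rose (7.14%) in shMap3k7, against 7.08% and 4.86% of all genes tested. In shDouble 5 fell (35.7%) and 1 rose (7.14%), against 13.6% and 10.2%. P4ha1 hydroxylates collagen prolines and was at 49.0, 94.5 and 75.9 CPM in shControl, at 34.1 and 39.5 in shMap3k7, at 119 and 129 in shChd1, and at 33.4, 36.6, 32.0 and 37.2 in shDouble. The 6 libraries with a Map3k7 hairpin were close together at 32.0 to 39.5 CPM, all below the lowest control at 49.0. From shControl it differed on the log2 scale by -0.99 ± 0.22 (adjusted p = 0.0199) in shMap3k7 and -1.07 ± 0.18 (adjusted p = 0.00266) in shDouble. P4ha2, its relative, was at 21.4, 66.2 and 34.5 CPM in shControl, at 14.7 and 7.10 in shMap3k7, at 87.7 and 68.0 in shChd1, and at 16.2, 14.7, 5.88 and 5.59 in shDouble. Clone 7 libraries lay below clone 1 libraries, and both below the controls. Its log2 difference from shControl was -1.93 ± 0.47 (adjusted p = 0.0143) in shDouble and -1.90 ± 0.60 (adjusted p = 0.0642) in shMap3k7.

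Bnip3 and Bnip3l are receptors that target mitochondria for removal. Bnip3 was at 15.5, 111 and 69.8 CPM in shControl, at 10.7 and 20.4 in shMap3k7, at 153 and 163 in shChd1, and at 11.01, 13.1, 17.9 and 15.9 in shDouble. Control replicate 1, at 15.5 CPM, lay among the libraries with a Map3k7 hairpin and below the other controls at 69.8 and 111 CPM. The log2 difference was -2.18 ± 0.50 (adjusted p = 0.0110) in shDouble and -2.08 ± 0.64 (adjusted p = 0.0583) in shMap3k7. Bnip3l was at 79.3, 115 and 109 CPM in shControl, at 72.1 and 70.6 in shMap3k7, at 139 and 140.4 in shChd1, and at 70.3, 66.3, 69.0 and 65.7 in shDouble. Its spread was small, and all 6 libraries with a Map3k7 hairpin, at 65.7 to 72.1 CPM, lay below the lowest control. On the log2 scale it differed from shControl by -0.51 ± 0.14 (adjusted p = 0.0430) in shMap3k7 and -0.58 ± 0.12 (adjusted p = 0.00615) in shDouble.

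Vegfa, the growth factor that recruits vessels, was at 107, 234 and 209 CPM in shControl, at 51.1 and 88.2 in shMap3k7, at 255 and 185 in shChd1, and at 57.7, 68.5, 89.9 and 102 in shDouble. All 6 libraries with a Map3k7 hairpin lay below the controls, clone 1 lower than clone 7. Against shControl the log2 difference was -1.40 ± 0.37 (adjusted p = 0.0367) in shMap3k7 and -1.20 ± 0.30 (adjusted p = 0.0154) in shDouble. Mxi1, which competes with Myc for its partner Max, was at 33.5, 49.8 and 56.6 CPM in shControl, at 76.2 and 84.9 in shMap3k7, at 51.7 and 45.5 in shChd1, and at 74.7, 73.4, 84.3 and 82.8 in shDouble. Every library with a Map3k7 hairpin lay above every other library. From shControl it differed on the log2 scale by 0.79 ± 0.18 (adjusted p = 0.0220) in shMap3k7 and 0.76 ± 0.16 (adjusted p = 0.00747) in shDouble. It lies on chromosome 19, and less the median of that chromosome the differences were 0.43 and 0.37; the part of that shift was not tested.

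The other 8 targets did not pass in either comparison. Ddit4, an inhibitor of mTOR signalling and the most abundant of these targets per kilobase, ranged from 87.6 to 153 CPM in shControl and from 109 to 163 CPM in shDouble, and was at 111 and 224 CPM in shMap3k7. Clone 7 in shMap3k7 was the highest library, and the same clone with either Chd1 hairpin was lower. Its log2 difference from shControl was 0.58 ± 0.30 (adjusted p = 0.232) in shMap3k7 and 0.26 ± 0.26 (adjusted p = 0.508) in shDouble. Car9, the carbonic anhydrase often used as a hypoxia marker, was at 5.921 to 6.504 CPM in the 3 clone 1 libraries and at 0.605 to 1.69 CPM in the other 8. Its log2 differences were 1.87 ± 0.78 (adjusted p = 0.143) in shMap3k7 and 1.75 ± 0.69 (adjusted p = 0.0907) in shDouble. Adm, adrenomedullin, was at 37.2 CPM in control replicate 3 and at 3.37 to 11.1 CPM in the 10 other libraries. Ero1l, an oxidase of protein folding, had a log2 difference of 0.02 ± 0.13 (adjusted p = 0.927) in shDouble. Ndrg1, Ankrd37, Higd1a and Kdm3a had log2 differences from -0.31 to -0.68 in shMap3k7 and from -0.38 to -0.50 in shDouble.

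Glycolytic enzymes and the 21 other HIF targets, which here take in the regulators, transporters and oxygen sensors, were then set side by side. In shMap3k7 none of 15 enzymes was called, and 7 of 21 other targets fell and 1 rose. In shDouble 9 of 15 enzymes fell, and 9 of 21 other targets fell and 1 rose. Of all genes tested, 7.08% fell and 4.86% rose in shMap3k7, and 13.6% and 10.2% in shDouble. The shDouble libraries come from the same clones as the shMap3k7 libraries and are more numerous, and the fit takes all as separate. Between shDouble and shMap3k7 no enzyme was called, and the median log2 difference of the enzymes was -0.08. The median log2 difference from shControl was -0.34 for enzymes and -0.51 for other targets in shMap3k7, and -0.47 and -0.50 in shDouble, with all genes tested at -0.01 and 0.00. The spread of single genes was wider among the other targets, from -4.31 to 1.75 in shDouble, than among the enzymes, from -2.18 to 0.22. With the line as a random block, limma voom called none of the enzymes in shDouble and 7 of the 21 other targets (1 higher, 6 lower), and edgeR without control clone 4 gave the same numbers. A difference between the lists was not tested.

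**Figure D3:**
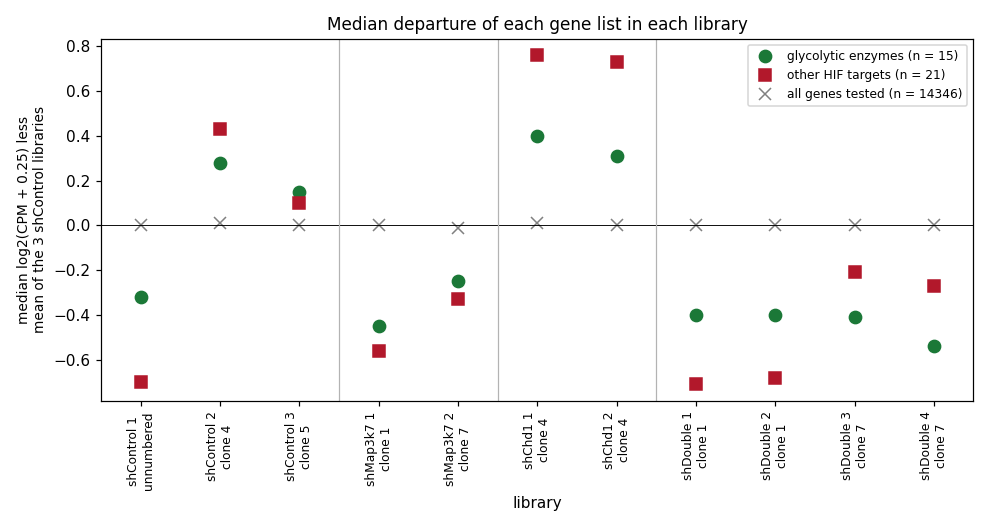
Median over 15 glycolytic enzymes (circles), 21 other HIF targets (squares) and 14346 genes tested (crosses) of log2(CPM + 0.25) less the mean of the 3 shControl libraries, by library. The controls run from -0.70 to 0.43 for the other targets, and both shChd1 libraries lie above every control in both lists.

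Per library, the median of the enzymes was -0.32, 0.28 and 0.15 in shControl, -0.45 and -0.25 in shMap3k7, -0.40, -0.40, -0.41 and -0.54 in shDouble, and 0.40 and 0.31 in shChd1. For the other targets it was -0.70, 0.43 and 0.10 in shControl, -0.56 and -0.33 in shMap3k7, -0.71, -0.68, -0.21 and -0.27 in shDouble, and 0.76 and 0.73 in shChd1. The medians of both lists were thus low in control replicate 1, where that of the other targets lay below both shMap3k7 libraries. In the shDouble libraries the other targets were lower in clone 1 than in clone 7, and the enzymes were not.

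In shChd1 members tended to lie above the controls, and 2 of 39 rose and none fell, against 0.662% and 2.24% of all genes tested, or 2.91% in either direction. By ranges, 22 members (56.4%) had both shChd1 libraries above every control, against 23.1% of all genes, and none had both below, against 23.4%. Aldoc rose with a log2 difference of 1.97 ± 0.42 (adjusted p = 0.0430), to 3.91 times the control level, and Ero1l rose with 0.79 ± 0.15 (adjusted p = 0.0358), to 1.72 times. Aldoc was at 49.3 and 49.6 CPM in shChd1 and at 20.5 CPM in the highest control. Ero1l was at 72.7, 113 and 88.4 CPM in shControl, at 100.3 and 101 in shMap3k7, at 153 and 162 in shChd1, and at 89.7, 86.8, 102 and 92.7 in shDouble, and both shChd1 libraries lay above all others. At an unadjusted p under 0.05, 17 members were higher and none lower, against 10.4% and 14.7% of all genes. DESeq2 called 9 higher and limma voom 2, with none lower by either. The median log2 difference was 0.35 for the enzymes and 0.76 for the other targets, and -0.01 for all genes. Hif1a at 0.97 ± 0.27 (adjusted p = 0.0710), P4ha1 at 0.76 ± 0.21 (adjusted p = 0.0724) and Bnip3l at 0.46 ± 0.14 (adjusted p = 0.0821) did not pass. Without clone 4 among the controls 15 members were called, all higher. Clone 4 was the highest control in most members, and the share of all genes called in that fit is not given here. Leaving out any other single library of the 11 ended both calls.

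Both shChd1 libraries come from control clone 4, the control with the highest levels of most members, so they were also compared with that library alone. Both lay above it in 24 of 39 members (61.5%), against 36.6% of all genes tested, and both below it in 4 (Gapdh, Pkm, Adm and Car9), against 38.2%. The enzymes lay above it in 7 of 15 and the other targets in 15 of 21. The ratio to clone 4 was 2.40 and 2.42 for Aldoc in the libraries with 96526 and 96528, 1.38 and 1.46 for Bnip3, 1.34 and 1.41 for Egln3 and 1.38 and 1.26 for Hif1a. It was 1.35 and 1.43 for Ero1l, 1.26 and 1.36 for P4ha1 and 1.67 and 1.43 for Ankrd37, a small ankyrin-repeat protein. With a term for each line, the replicate block, which takes the effect of a Chd1 hairpin within lines, Aldoc was called at 1.27 ± 0.16 (adjusted p = 0.0109) and Ero1l was not, at 0.48 ± 0.10 (adjusted p = 0.0642). That fit called 0.349% of all genes higher and 0.641% lower. The blocked medians were 0.13 for the enzymes and 0.27 for the other targets. The clone 4 control is a single library, and its own error cannot be told apart from the effect of the Chd1 hairpins.

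**Figure D4:**
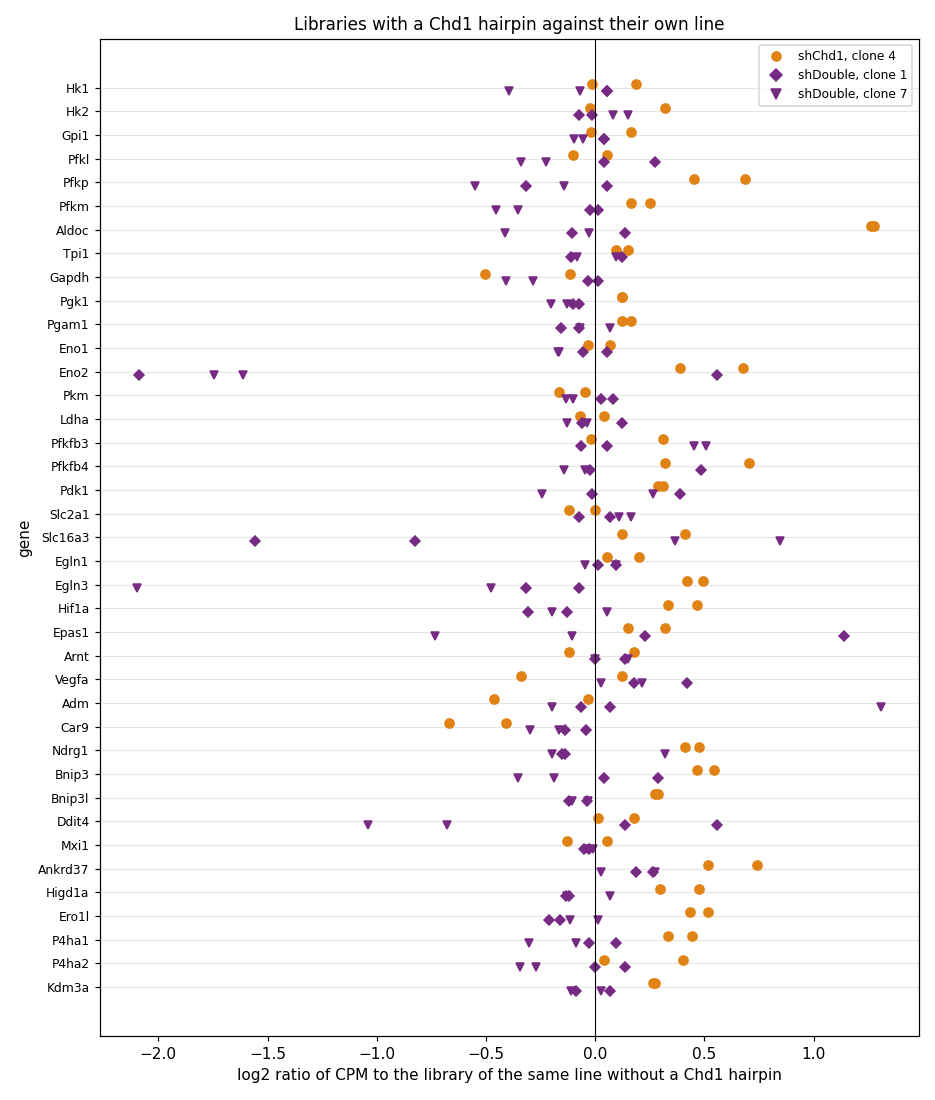
Log2 ratio of CPM in each library with a Chd1 hairpin to the library of the same line without one, for the 39 members (vertical axis). Circles are the 2 shChd1 libraries against control clone 4, and diamonds and triangles are shDouble libraries against their own Map3k7 clone; Aldoc stands highest among the circles, and Eno2, Slc16a3 and Egln3, at low counts in these clones, have the widest spread among the diamonds and triangles.

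Adding a Chd1 hairpin to a Map3k7 clone gave no called member. Between shDouble and shMap3k7 none of 39 was called by edgeR, with 0.0% of all genes called, none had an unadjusted p under 0.05 (0.474% of all genes higher, 0.328% lower), and DESeq2 and limma voom called none. With the line as a replicate block none was called either. By ranges, 1 member lay lower in all shDouble libraries, against 3.15% of all genes, and none higher, against 3.56%. The median log2 difference was -0.06, and single estimates ran from -0.98 for Eno2 to 0.42 for Adm. Estimates with their SE were -0.13 ± 0.26 for Hif1a, -0.07 ± 0.44 for Aldoc, -0.12 ± 0.15 for Ero1l and -0.24 ± 1.08 for Egln3. Chd1 transcript itself was at 198, 162, 194 and 190 CPM in shDouble, below the 221 and 238 CPM of shMap3k7, with a log2 difference of -0.30 ± 0.10 (adjusted p = 1.0).

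Between shDouble and shChd1 28 members fell and 2 rose (Mxi1 and Car9), against 22.2% and 22.6% of all genes tested, or 44.8% in either direction. By ranges, 31 members (79.5%) had all shDouble libraries below both shChd1 libraries, against 31.9% of all genes, and 3 above, against 31.8%. The falls took in 11 of 15 enzymes, 15 of 21 other targets, and the subunits Hif1a and Arnt; the median of the enzymes was -0.80 and that of the other targets -1.25. With the line as a random block limma voom called 19 members in place of 30: 6 enzymes and 11 other targets lower, Mxi1 higher, and Hif1a but not Arnt. Without shChd1 replicate 1 the calls were 21, with 7 enzymes lower, and without shChd1 replicate 2 they were 26, with Arnt, Ndrg1, Mxi1 and Car9 lost. The log2 difference was -5.74 ± 0.87 (adjusted p = 0.000635) for Egln3, -3.45 ± 0.54 (adjusted p = 0.000745) for Bnip3, -3.39 ± 0.40 (adjusted p = 0.000183) for Aldoc and -2.05 ± 0.25 (adjusted p = 0.000213) for Hif1a. Gapdh, Pgam1, Eno1 and Pkm were not called, and the log2 difference of Pkm was -0.26 ± 0.10 (adjusted p = 0.0526). These groups differ in the Map3k7 hairpin and in the clone that carries it, which cannot be told apart.

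The interaction, which asks whether a Chd1 hairpin had another effect in Map3k7 clones than in controls, was called for none of 39 members by edgeR, and for 0.0% of all genes. At an unadjusted p under 0.05, 9 members had a negative interaction and none a positive one, against 4.68% and 9.24% of all genes. DESeq2 called 2 and limma voom none, and without control clone 4 edgeR called 8, all negative. Shares of all genes called in those 3 fits are not given here. With the line as a replicate block none was called, with 0.0488% of all genes called higher and 0.0279% lower, and 11 members had an unadjusted p under 0.05, against 12.6% of all genes.

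The 2 Map3k7 clones, with 3 libraries each, differed in both directions, in members at shares not far from those of all genes tested. Clone 1 lay above clone 7 without overlap in 10 of 39 (25.6%), against 23.3% of all genes tested, and below it in 12 (30.8%), against 22.1%. Clone 1 was the higher in Car9, Egln3, P4ha2, Epas1, Slc2a1 and the enzymes Gpi1, Aldoc, Eno1, Pkm and Ldha. Clone 7 was the higher in Vegfa, Ndrg1, Bnip3, Kdm3a, Higd1a, Ankrd37, Egln1, Mxi1, Hk2, Pfkp, Tpi1 and Pgk1. HIF targets thus stood on both sides. Across all 11 libraries, the 6 with a Map3k7 hairpin lay below the 5 others in 12 members (30.8%), against 12.8% of all genes, and above them in Mxi1 alone (2.56%), against 12.1%. These 12 were Hk1, Pfkm, Eno2, Pkm, Pfkfb3, Pdk1, Egln3, Hif1a, Vegfa, Bnip3l, P4ha1 and P4ha2.

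A wider list of 65 glycolysis and hypoxia genes outside the set, 54 of them tested, gave 9 that fell (16.7%) and 1 that rose (1.85%) in shMap3k7, against 7.08% and 4.86% of all genes. In shDouble 13 (24.1%) fell and 3 (5.56%) rose, against 13.6% and 10.2%. The medians were -0.22 and -0.25. In shChd1 1 fell (Edn1, endothelin), or 1.85% against 2.24% of all genes, and none rose. Fam162a, a mitochondrial protein induced by HIF, was at 61.0, 120.0 and 88.3 CPM in shControl, at 29.7 and 32.7 in shMap3k7, at 136 and 151 in shChd1, and at 28.3, 30.1, 30.2 and 33.2 in shDouble. The 6 libraries with a Map3k7 hairpin formed a narrow band below every control, with a log2 difference of -1.52 ± 0.23 (adjusted p = 0.004) in shMap3k7 and -1.56 ± 0.18 (adjusted p = 0.00047) in shDouble. Rora, a nuclear receptor, differed on the log2 scale by -2.63 ± 0.40 (adjusted p = 0.00403) and -2.75 ± 0.30 (adjusted p = 0.000332), and Lox, which crosslinks collagen, by -5.56 ± 1.03 (adjusted p = 0.0100) and -5.24 ± 0.74 (adjusted p = 0.00116). Hif1an, the asparagine hydroxylase that blocks HIF activity, rose, from 53.2 to 56.0 CPM in the controls to 78.9 to 91.4 CPM in the libraries with a Map3k7 hairpin. The log2 difference was 0.65 ± 0.09 (adjusted p = 0.00336) in shMap3k7 and 0.62 ± 0.08 (adjusted p = 0.000781) in shDouble, and it lies on chromosome 19 with Mxi1.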

How the data were processed

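Expected counts per gene, estimated read counts that are not normalized, were taken from the deposited table for 11 libraries. Per the submitters' processing notes the authors used Bowtie2, RSEM 1.3.1 and limma on GRCm38; the sources used here do not give their settings, annotation or strand choice. RSEM divides reads between similar genes. Counts were rounded and tested in R 4.3.3 with edgeR 4.0.16 (filterByExpr at 10 counts, 15 in total, TMM factors, 1 mean per group over all 11 libraries, quasi-likelihood F-test, Benjamini-Hochberg adjustment over 14346 genes). CPM are scaled by TMM; log2 differences are given ± SE. Exon lengths came from GENCODE M21 on GRCm38, promoters from RefSeq. Alternatives used DESeq2 1.42.0, limma 3.58.1, other filters and blocks, and libraries left out. Where 1 library of shMap3k7 or shChd1 was left out, the lone library is assumed to vary like the other groups. Same-line libraries are paired by design: within lines limma estimated a correlation of 0.631. Values for every library are given for members called in shMap3k7 or shDouble against shControl, HIF subunits, oxygen sensors and the member of each role with the highest mean CPM, and, chosen later, for Ero1l; other members are given by ranges and counts; of the wider list, up to 4 with the smallest adjusted p per comparison. Edn1 was named as the only call of its kind after its value was seen. The members and lists were chosen with earlier results of these data known. The test was checked on simulated data with every library drawn independently, so that check does not cover the correlation within lines. Reads have no molecular identifiers.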

Additional observations from a re-analysis of the deposited data

Results flagged for a closer look

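Of 39 members examined in the 4 shDouble libraries, 2 had 1 library whose gap to the nearest other exceeded 0.829 of the group's range, Dixon's 95% limit for 4 samples. Pfkfb4 was at 5.09 CPM in shDouble replicate 1 (clone 1 with construct 96526) against 3.28 to 3.58 in the other 3. Adm was at 11.1 CPM in shDouble replicate 3 (clone 7 with construct 96526) against 3.92 to 4.64. Chance alone marks about 1 group in 20.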

How the results depend on the processing

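Direction did not reverse for any called member or list median in the alternatives run. Counts of called members moved. In shMap3k7 against shControl, 8 were called in the fit reported, 16 by DESeq2, 4 by limma voom, 2 with the line as a random block, 0 with only the 2 groups compared, 0 with counts summed per line, and 0 to 18 with 1 library left out. In shChd1 against shControl, 2 became 9 by DESeq2, 0 with only the 2 groups, 1 with the line as a replicate block, and 0 to 15 with 1 library left out. In shDouble against shControl, 20 became 8 with the random block, 0 with counts summed per line, and 8 to 24 with 1 library left out. In shDouble against shChd1, 30 became 19 with the random block and 21 to 30 with 1 library left out. The interaction went from 0 to 2 by DESeq2, and 0 to 8 with 1 library left out; the replicate block left it, and shDouble against shMap3k7, at 0. The cause was not tested, except that fewer libraries enter the smaller fits. No paired analysis was possible for comparisons across Map3k7 status because no line appears on both sides. With other size factors, other list borders, shifted chromosomes left out or 1 library left out, medians stayed between -0.49 and -0.30 (enzymes) and -0.69 and -0.40 (other targets) in shMap3k7, 0.16 and 0.43, and 0.47 and 0.97 in shChd1, and -0.53 and -0.37, and -0.73 and -0.33 in shDouble. With the line as a replicate block, an alternative chosen after seeing the data, the shChd1 medians were 0.13 and 0.27. Depth limits members under about 1 CPM, such as Eno2, Slc16a3 and Egln3 in clone 7.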
